A study of Mus musculus with 24 samples.

Results

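NF-kB is a family of transcription factors that sits in the cytoplasm until a signal releases it, and much of what it switches on first are its own subunits and inhibitors. The genes described here are 10 members of that circuit, namely the subunit genes Nfkb1, Nfkb2, Rel and Relb, the genes of the IkB-type proteins Nfkbia, Nfkbie, Nfkbiz and Bcl3, and Tnfaip3 and Tnip1, whose products restrain the signal upstream. They were taken as the rows of a raw count table whose Ensembl identifiers map to these symbols, 10 of 55487 genes. The rule used no measured value, but the genes were chosen with earlier results of these data known. Each symbol matched 1 row, and all 10 were among the 14099 genes kept by the filter on low counts, with 176 to 5178 counts per library.

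The libraries were poly(A) RNA of co-cultures of bone-marrow-derived macrophages with spleen lymphocytes, the lymphocytes coming from mice that bore tumours of B16-F10-OVA (B16-F10 is a melanoma line of the mouse). The macrophages were Tmem175-/- (knockout; Tmem175 encodes an ion channel of lysosomes) or WT. Each genotype was cultured with B16-F10-OVA tumour cell antigen and IL-1beta (500 pg/ml), with that antigen and IL-18 (500 pg/ml), with the antigen alone, or with none of these, which gave 8 groups of 3 libraries. All groups share the lymphocytes of tumour-bearing mice. Age, sex, the number of animals, the time in culture, the form of the antigen, the genotype of the lymphocytes and the deleted stretch of Tmem175 are not given in the sources used here, and neither is whether the 3 libraries of a group came from separate mice or cultures, so that p-values measure the spread between these libraries only. The groups follow the sample titles, because the genotype field of most knockout samples names other genes.

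Tmem175 was at 14.1 to 15 CPM in knockout libraries and 24.4 to 26.1 CPM in WT libraries without antigen, and at 7.61 to 9.24 CPM in knockout and 12.8 to 16.3 CPM in WT libraries over the 3 conditions with antigen. The knockout and WT ranges did not overlap in either state, but reads remained in all 12 knockout libraries, and gene-level counts do not show on which exons. Depth ran from 17744540 to 24898552 counts per library. Of the cell types, the 10 macrophage markers summed to 13231 to 25689 CPM in all libraries, against 22 to 62.1 CPM for the 10 T cell markers and 0.0483 to 0.615 CPM for the 6 melanoma markers, so T cell transcripts made up little of the RNA and those of the labelled tumour line were close to 0. Immunoglobulin genes took 0.324 to 0.601% of counts in knockout and 0.01 to 0.0202% in WT libraries.

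In unstimulated macrophages, subunit dimers are held by IkB proteins. Kinases activated by microbial products, cytokines or other danger signals mark the IkB proteins for destruction, and the freed dimers turn on inflammatory genes together with genes that end the response. Nfkbia encodes IkB-alpha, the main cytoplasmic inhibitor, Nfkbie encodes the related IkB-epsilon, Nfkbiz and Bcl3 encode nuclear IkB proteins that modify the action of DNA-bound subunits, Tnfaip3 encodes the ubiquitin-editing enzyme A20, and Tnip1 encodes its binding partner ABIN1.

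Upstream sequence is shown for 5 of the genes because they span the antigen response, from Nfkbia, Tnip1 and Bcl3, which rose most among those in the promoter table, to Tnfaip3, which rose little, and Rel, which fell. RefSeq promoters on GRCm38.p6, an earlier mouse build than the GRCm39 of the counts, were given for 7 of the 10 genes. Nfkb1, Relb and Nfkbiz were not among them. The 250 bases before each annotated start are printed 5′ to 3′ along the gene, and capitals mark matches to the kB consensus, the sequence that NF-kB dimers bind (a run of G, a purine, an open middle, pyrimidines and a run of C), on either strand, with overlapping matches run together.
Nfkbia, chr12:55492648-55492897, minus strand: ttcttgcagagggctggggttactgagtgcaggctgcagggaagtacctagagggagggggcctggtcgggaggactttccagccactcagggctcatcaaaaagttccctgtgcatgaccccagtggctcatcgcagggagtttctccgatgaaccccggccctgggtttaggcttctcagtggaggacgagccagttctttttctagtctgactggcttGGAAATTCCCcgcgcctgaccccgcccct
Tnip1, chr11:54962941-54963190, minus strand: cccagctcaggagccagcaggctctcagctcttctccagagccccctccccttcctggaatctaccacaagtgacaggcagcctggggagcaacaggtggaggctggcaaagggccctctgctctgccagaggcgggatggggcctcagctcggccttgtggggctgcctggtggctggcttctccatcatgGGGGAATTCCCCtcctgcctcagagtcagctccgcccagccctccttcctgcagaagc
Tnfaip3, chr10:19015411-19015660, minus strand: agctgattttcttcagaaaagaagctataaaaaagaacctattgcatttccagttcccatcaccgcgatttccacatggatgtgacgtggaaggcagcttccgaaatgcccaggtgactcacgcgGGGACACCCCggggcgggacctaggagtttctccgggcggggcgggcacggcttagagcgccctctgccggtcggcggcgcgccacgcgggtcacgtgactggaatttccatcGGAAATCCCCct
Rel, chr11:23770970-23771219, minus strand: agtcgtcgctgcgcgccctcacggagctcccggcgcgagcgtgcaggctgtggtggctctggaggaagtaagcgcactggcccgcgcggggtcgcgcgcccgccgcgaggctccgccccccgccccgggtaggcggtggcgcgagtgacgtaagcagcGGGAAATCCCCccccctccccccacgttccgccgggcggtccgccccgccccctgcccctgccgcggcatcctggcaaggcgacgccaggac
Bcl3, chr7:19822756-19823005, minus strand: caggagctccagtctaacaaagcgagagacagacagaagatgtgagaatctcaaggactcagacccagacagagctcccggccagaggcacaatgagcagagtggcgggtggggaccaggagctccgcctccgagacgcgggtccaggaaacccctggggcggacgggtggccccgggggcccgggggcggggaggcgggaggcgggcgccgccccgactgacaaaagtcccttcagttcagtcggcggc
A match was present for 6 of the 7 genes with a promoter, namely these 4 besides Bcl3, and Nfkb2 and Nfkbie. For comparison, 7.25% of all 32851 windows of the same length held one, 8.23% of 27025 genes and 10.5% of the 10220 tested genes in the table. The window of Bcl3 held none, which says only that these letters are not there. Of the 5 genes shown, the matches of Rel and Tnip1 read as the consensus on both strands, as did that of Tnfaip3 starting 125 bases before its first start. Tnfaip3 had a separate match starting 12 bases before that start and none before its second start. A match is a string of letters and no evidence of binding, and none of these libraries measured binding.

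**Figure D1:**
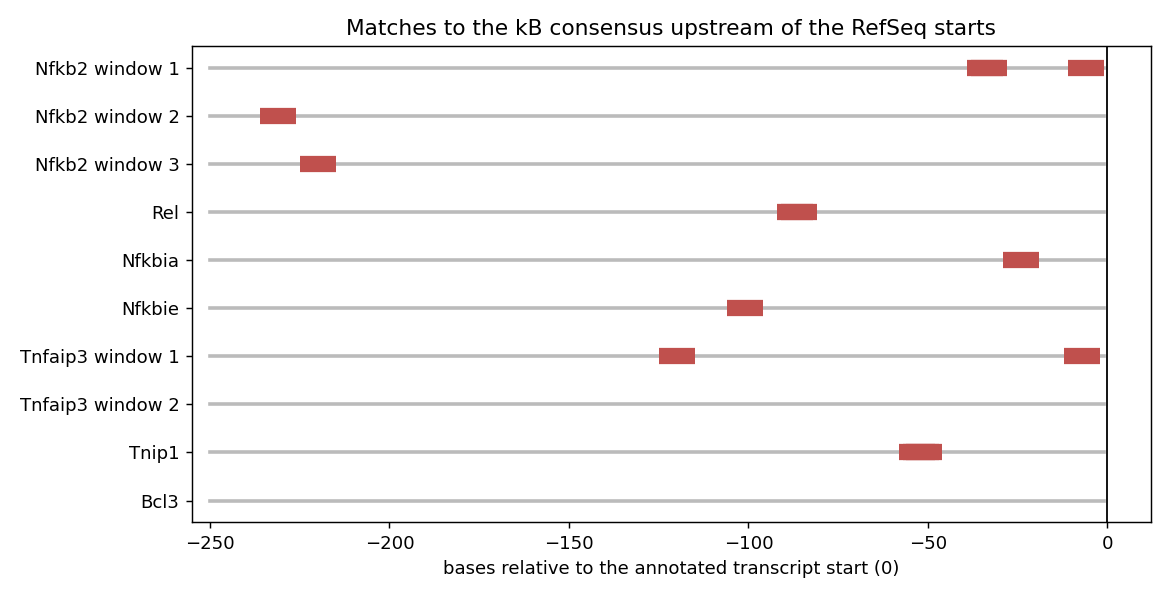
Matches to the kB consensus (red blocks) in the 250 bases before each RefSeq start of the 7 genes with a promoter, 1 line per start, with distance to the start in bases on the x axis. 8 of the 10 windows hold a match, and the window of Bcl3 and the second of Tnfaip3 hold none.

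Levels of different genes were compared per kb of the longest annotated transcript (GENCODE vM21). With antigen, both genotypes had the same order of the 10 genes. Nfkbia led with 72.7 ± 9.9 CPM per kb in knockout and 80.7 ± 2.51 CPM per kb in WT cultures (SD, n = 3 each), followed by Tnip1 at 68.6 ± 4.99 and 69.2 ± 0.638 CPM per kb, and Relb was lowest at 7.39 ± 0.352 in knockout and 8.21 ± 0.425 CPM per kb in WT cultures. Nfkbia and Tnip1 overlapped in the knockout libraries. At the low end Nfkbie overlapped both Rel and Relb there, while Rel and Relb were apart. In WT libraries the overlap was between Nfkbie and Relb. Without antigen Nfkb1 led in both genotypes, at 27.8 ± 1.15 CPM per kb in knockout and 31.4 ± 0.557 CPM per kb in WT cultures. Nfkbiz was then the lowest of the 10 in knockout cultures, at 3.48 ± 0.195 CPM per kb, where its libraries lay apart from those of Bcl3 but overlapped those of Nfkbie, its neighbour in the order. In WT cultures without antigen Nfkbiz had 6.29 ± 0.505 CPM per kb, and its libraries overlapped those of Bcl3.

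**Figure D2:**
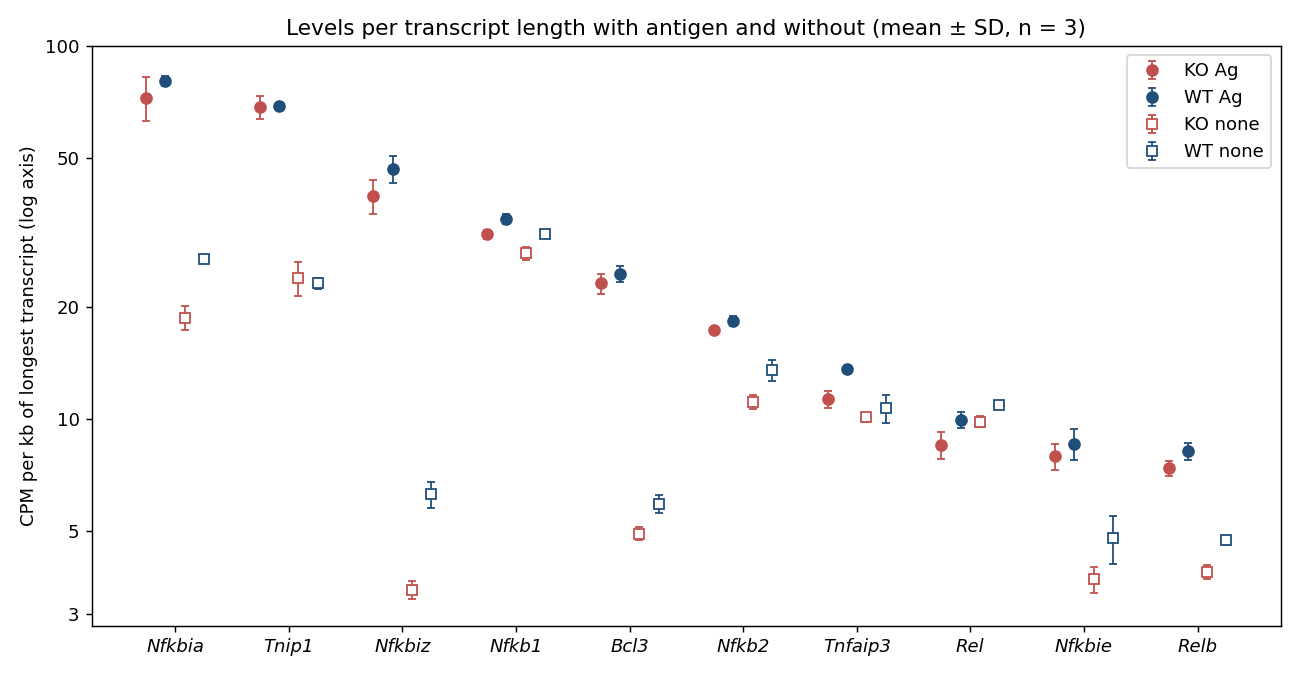
CPM per kb of the longest transcript (log axis) for each gene, in knockout and WT cultures with antigen (filled) and without (open), as mean ± SD of 3 libraries. With antigen Nfkbia and Tnip1 lie highest, at 72.7 and 68.6 CPM per kb in knockout cultures, and without antigen Nfkbiz is among the lowest genes.

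Every member differed with tumour antigen in both genotypes. In knockout cultures all 10 passed the test (edgeR's quasi-likelihood test, Benjamini-Hochberg adjusted p under 0.05 over all tested genes), where 68.3% of all tested genes did, and 9 were higher, against 33.8% of tested genes. In WT cultures all 10 passed as well (68% of tested genes), and the same 9 were higher (33.5%). Rel was the 1 gene that fell, against 34.6% of tested genes in knockout and 34.5% in WT cultures. The median log2 fold change of the 10 was 1.01 in knockout and 0.82 in WT cultures, against 0.01 and -0.00 over all tested genes. The rises ran from 11.3-fold and 7.43-fold for Nfkbiz to 1.13-fold and 1.09-fold for Nfkb1. In RNA from mixed cells, a change in the number of cells of a type and a change in RNA per cell cannot be told apart.

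Nfkbiz and Bcl3, the members that encode nuclear IkB proteins, had the largest folds. Nfkbiz, an inducible coactivator of secondary inflammatory genes, had 178, 144 and 165 CPM in the 3 knockout libraries with antigen and 14.3, 13.5 and 15.1 CPM in those without. In WT cultures it had 210, 178 and 190 CPM with antigen and 27.3, 23.5 and 26.8 CPM without. Every library with antigen was above every library without, and the fold was 11.3 in knockout (log2 3.50, 95% interval 3.27 to 3.73, adjusted p 7.27e-16) and 7.43 in WT cultures (log2 2.89, 2.68 to 3.11, adjusted p 4.59e-15). Bcl3, the partner of p50 and p52 homodimers, had 45.7, 41.2 and 41.2 CPM in knockout libraries with antigen and 8.7, 9.37 and 9.29 CPM without. It had 46.9, 42.9 and 46.3 CPM in WT libraries with antigen and 10.3, 11.2 and 11.4 CPM without. The groups again did not overlap, with folds of 4.68 in knockout and 4.13 in WT cultures (log2 2.23 ± 0.0819 and 2.05 ± 0.0794, SE).

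The genes of the cytoplasmic inhibitors Nfkbia and Nfkbie rose too. Nfkbia had 133, 104 and 107 CPM in knockout libraries with antigen and 27, 30.2 and 31.2 CPM without, a 3.89-fold rise (log2 1.96 ± 0.0889, adjusted p 8.18e-14). In WT libraries it had 132, 124 and 126 CPM with antigen and 42.7, 43.2 and 41.3 CPM without, a 3-fold rise (log2 1.58 ± 0.0854, adjusted p 1.42e-12). The first knockout library with antigen stood above the other 2, at the level of the highest WT library. Nfkbie rose 2.14-fold in knockout and 1.79-fold in WT cultures, at 23.9 ± 1.93 against 11.2 ± 0.887 CPM and 25.8 ± 2.42 against 14.4 ± 2.1 CPM (SD, n = 3 each).

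The 2 partners upstream differed in size. Tnip1 rose 2.87-fold in knockout and 3-fold in WT cultures, with 220, 191 and 201 CPM in knockout libraries with antigen against 76.7, 62.6 and 73.6 CPM without, and 207, 207 and 204 CPM in WT libraries with antigen against 67.4, 67.5 and 71.2 CPM without. Tnfaip3 rose far less, 1.12-fold in knockout (log2 0.16 ± 0.0514, adjusted p 0.00823) and 1.27-fold in WT cultures (log2 0.35 ± 0.0508, adjusted p 6.65e-07). It had 73.4, 69.6 and 66.3 CPM in knockout libraries with antigen and 60.5, 64.2 and 63.1 CPM without, and 85.9, 84.7 and 83.1 CPM in WT libraries with antigen and 61, 72.4 and 65.7 CPM without. All libraries with antigen were above those without, by about 2 CPM at the closest in knockout cultures, and the knockout rise missed the threshold without the first knockout library with antigen (log2 0.12, adjusted p 0.057).

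Among the subunits, the genes of the non-canonical arm moved most. Relb, whose product pairs with p52, rose 1.89-fold in knockout (24.2 ± 1.15 against 12.8 ± 0.561 CPM) and 1.74-fold in WT cultures (26.9 ± 1.39 against 15.5 ± 0.428 CPM). Nfkb2, which encodes the p100 precursor of p52, rose 1.56-fold in knockout (66.6 ± 1.29 against 42.7 ± 1.84 CPM) and 1.36-fold in WT cultures (70.6 ± 2.22 against 51.9 ± 3.33 CPM). An annotated gene on the strand opposite Nfkb2 overlaps it and reached 9.88 CPM, and whether the counting used strand is not given in the sources used here. Nfkb1, which encodes the p105 precursor of p50, rose 1.13-fold and 1.09-fold. Rel, which encodes c-Rel, a subunit best known from lymphocytes and from Il12b induction in macrophages, went the other way. It had 68.6, 58.2 and 64.1 CPM in knockout libraries with antigen and 71.2, 76 and 73.5 CPM without (log2 -0.21 ± 0.0492, adjusted p 0.000498), and 78.1, 73.4 and 71.4 CPM in WT libraries with antigen and 81.8, 81.3 and 80.5 CPM without (log2 -0.13 ± 0.0486, adjusted p 0.0206). The groups did not overlap in either genotype. The fall in WT cultures missed the threshold in DESeq2's Wald test (adjusted p 0.0573), with immunoglobulin genes left out (0.0509), and without the first WT library without antigen (0.0531) or the second (0.0603) or the third (0.104) WT library with antigen.

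**Figure D3:**
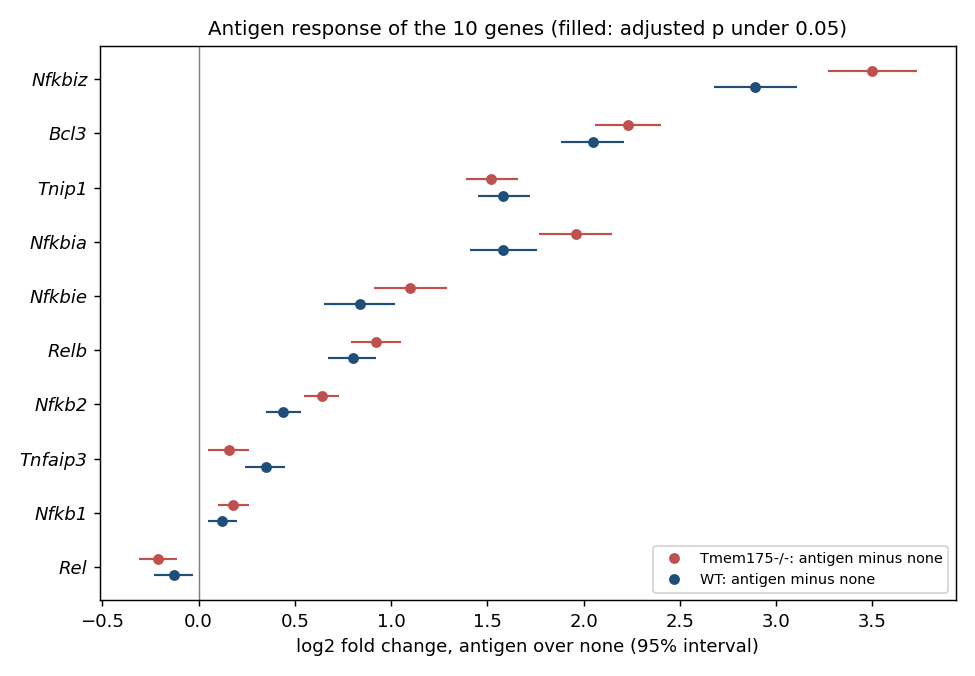
log2 fold change of each gene with antigen over none, in knockout (red) and WT (blue) cultures, with 95% intervals from the edgeR fit (3 libraries per group). The points run from 3.50 and 2.89 for Nfkbiz to -0.21 and -0.13 for Rel, and the intervals of the 2 genotypes lie apart for Nfkbiz, Nfkbia and Nfkb2.

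The neutrophil markers moved with antigen too: the 10 genes summed to 425 to 477 CPM in knockout libraries with antigen and 1276 to 1372 CPM in those without, and to 383 to 468 CPM in WT libraries with antigen and 1224 to 1377 CPM without. Fibroblast markers moved the other way, at 42.5 to 51.1 against 13.3 to 29.3 CPM in knockout and 126 to 189 against 29 to 101 CPM in WT libraries. Macrophage markers were at 15792 to 18310 against 13231 to 13859 CPM in knockout and 24676 to 25635 against 18573 to 19037 CPM in WT. In each genotype 5 of the 10 were called higher and 4 lower. Dendritic cell markers were at 11.3 to 11.8 against 4.62 to 8.31 in knockout and 23.5 to 28.1 against 9.32 to 11.4 CPM in WT. T cell markers were at 24 to 27.5 against 24.2 to 25.6 in knockout and 30.9 to 36.1 against 56.4 to 62.1 CPM in WT. Of the 6 tested dendritic cell markers, 3 were called higher and 2 lower in knockout and 2 and 1 in WT cultures. Of the 10 T cell markers, 6 were called higher and 1 lower in knockout and 1 and 1 in WT cultures. The mitochondrial share of counts was 1.99 to 2.18% in knockout libraries with antigen and 2.81 to 2.89% in those without, and 2.16 to 2.21% in WT libraries with antigen and 2.89 to 2.99% in those without. The part of these in the members' changes was not tested.

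Whether the loss of Tmem175 in the macrophages went with a different NF-kB circuit was asked in 4 conditions. With antigen, 3 of the 10 members were lower in knockout than in WT cultures and 0 were higher, where 7.62% of tested genes were called lower and 7.7% higher. Without antigen 7 were lower and 0 higher (7.25% and 9.62% of tested genes). With antigen and IL-1beta 5 were lower and 0 higher (6.55% and 7.22%), and with antigen and IL-18 also 5 and 0 (10.3% and 9.89%). The count with antigen was 5 without the first knockout library and 2 without the first WT library, and the count with IL-18 was 3 without the first WT library or the second knockout library. At the median of the 10, the differences were small beside the antigen response. That median was -0.14 with antigen, -0.27 without, -0.18 with IL-1beta and -0.10 with IL-18 on the log2 scale. The median of all tested genes was within 0.01 of 0. Rel, Tnfaip3 and Nfkb1 went against this. Rel was at -0.22 between genotypes with antigen, and its antigen response was -0.21 in knockout and -0.13 in WT cultures. Tnfaip3 was at -0.28 between genotypes with antigen, and its antigen response was 0.16 and 0.35. Nfkb1 was at -0.18 between genotypes without antigen, and its antigen response was 0.18 and 0.12. Knockout and WT libraries did not overlap, with knockout lower, for 6 members with antigen (15.1% of tested genes), 8 without (13.6%), 6 with IL-1beta (15.5%) and 6 with IL-18 (17.5%). The 4 comparisons use separate libraries.

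**Figure D4:**
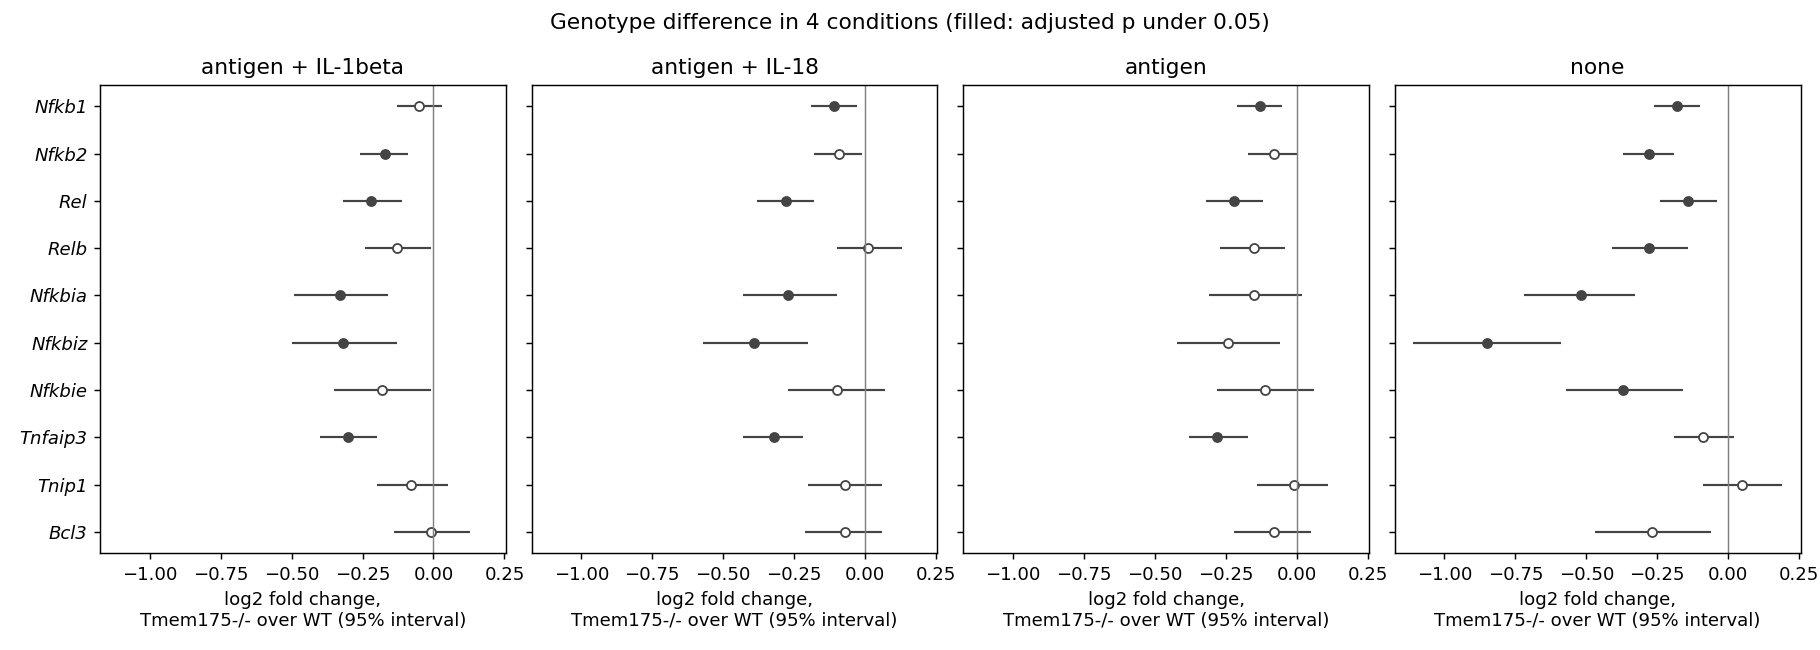
log2 fold change of each gene in knockout over WT cultures with 95% intervals, in 4 conditions (filled points: adjusted p under 0.05 in the edgeR fit). All but 2 of the 40 points lie below 0, the lowest being Nfkbiz without antigen at -0.85, and Tnip1 stays near 0 in each panel.

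Without antigen Nfkbiz and Nfkbia had the largest estimates of the 10 between genotypes. The 3 knockout libraries had 14.3, 13.5 and 15.1 CPM of Nfkbiz and the 3 WT libraries 27.3, 23.5 and 26.8 CPM, so that every knockout library was far below every WT library, by 1.8-fold (log2 -0.85, 95% interval -1.11 to -0.59, adjusted p 5.53e-05). For Nfkbia the values were 27, 30.2 and 31.2 CPM in knockout and 42.7, 43.2 and 41.3 CPM in WT libraries, 1.44-fold lower in knockout without overlap (log2 -0.52, -0.72 to -0.33, adjusted p 0.000507). With antigen neither passed: Nfkbiz was at log2 -0.24 (-0.42 to -0.06, adjusted p 0.0688), its ranges meeting at 178 CPM, and Nfkbia at -0.15 (-0.31 to 0.02, adjusted p 0.241), with ranges that overlapped. Leaving out the first knockout library with antigen brought Nfkbia to -0.27 (adjusted p 0.00588) and Nfkbiz to -0.31 (adjusted p 0.0326), and Nfkbiz also passed in DESeq2's Wald test (adjusted p 0.0318) and without the second WT library (-0.30, adjusted p 0.048).

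With the cytokines added, both were lower in knockout cultures again. Under IL-18, Nfkbiz had 151, 133 and 150 CPM in knockout and 198, 179 and 191 CPM in WT libraries (log2 -0.39 ± 0.087, adjusted p 0.00397), with no overlap. Under IL-1beta it had 148, 119 and 136 CPM in knockout and 174, 154 and 172 CPM in WT libraries (log2 -0.32 ± 0.0876, adjusted p 0.0206), also without overlap. That call was lost without the first (adjusted p 0.0858) or the third (0.0748) WT library or the second (0.11) or the third (0.0513) knockout library, and with these 6 libraries fitted alone (0.0751). Nfkbia was 1.25-fold lower with IL-1beta (114, 102 and 111 CPM in knockout, 147, 132 and 130 CPM in WT libraries, adjusted p 0.00774) and 1.2-fold lower with IL-18 (124, 103 and 110 CPM in knockout, 141, 135 and 129 CPM in WT libraries, adjusted p 0.0213). Both sets of ranges were apart, but the call with IL-18 was lost without the first WT library (adjusted p 0.0732) or the second (0.095) or the third (0.0711) knockout library.

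Tnfaip3 was called lower in the 3 conditions with antigen. Knockout libraries had 73.4, 69.6 and 66.3 CPM and WT libraries 85.9, 84.7 and 83.1 CPM with antigen alone, 1.21-fold lower in knockout (log2 -0.28 ± 0.0504, adjusted p 0.000228). With IL-1beta the values were 75.9, 71.6 and 74.9 CPM in knockout and 95.8, 92.9 and 85.5 CPM in WT libraries (-0.30 ± 0.05, adjusted p 7.47e-05), and with IL-18 they were 69.3, 65.5 and 64.9 CPM in knockout and 82.5, 84.8 and 82.4 CPM in WT libraries (-0.32 ± 0.0506, adjusted p 3.02e-05). In these 3 conditions all knockout libraries were below all WT libraries, and the calls held under all alternatives tried. Without antigen the genotypes overlapped, at 60.5, 64.2 and 63.1 CPM in knockout and 61, 72.4 and 65.7 CPM in WT libraries (log2 -0.09, 95% interval -0.19 to 0.02, adjusted p 0.305). The difference of antigen responses did not pass (-0.19, adjusted p 0.105), so the genotype difference is not shown to be larger with antigen. Tnip1 passed in no condition, and its estimates lay between -0.08 and 0.05.

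Rel was the 1 member called lower in knockout cultures in all 4 conditions, as 1.65% of tested genes were. With antigen it had 68.6, 58.2 and 64.1 CPM in knockout and 78.1, 73.4 and 71.4 CPM in WT libraries (log2 -0.22 ± 0.0491, adjusted p 0.00196). It was lower by a like amount with IL-1beta, at 60.5 ± 3.2 CPM in knockout and 70.3 ± 0.489 CPM in WT cultures (-0.22 ± 0.0496), and with IL-18, at 58.1 ± 2.4 CPM in knockout and 70.3 ± 2.24 CPM in WT cultures (-0.28 ± 0.0497, adjusted p 0.000173). Without antigen it had 71.2, 76 and 73.5 CPM in knockout and 81.8, 81.3 and 80.5 CPM in WT libraries (-0.14 ± 0.0486, adjusted p 0.0417). The ranges were apart in each condition. The call without antigen was lost with median-of-ratios factors (adjusted p 0.0542), in DESeq2's Wald test (0.0785), with no filter (0.0523), with immunoglobulin genes left out (0.0593), without the first (0.111), the second (0.0922) or the third (0.0818) WT library, and without the first (0.169) or the third (0.12) knockout library.

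The other 3 subunit genes were each called lower without antigen. Nfkb2 had 42, 41.4 and 44.8 CPM in knockout and 51.9, 55.2 and 48.5 CPM in WT libraries (1.21-fold lower in knockout, adjusted p 3.82e-05), and Relb 13.4, 12.2 and 12.7 CPM in knockout and 15, 15.8 and 15.6 CPM in WT libraries (1.21-fold lower, adjusted p 0.0034), both without overlap. With antigen Nfkb2 was at -0.08 (adjusted p 0.201) and Relb at -0.15 (adjusted p 0.0615), a call Relb gained without the third WT library (-0.19, adjusted p 0.0406) or the second knockout library (-0.19, adjusted p 0.0422). The difference of antigen responses did not pass for Relb (0.12, adjusted p 0.465) or Nfkb1 (0.05, adjusted p 0.659), so that their genotype differences with and without antigen are not shown to differ. Nfkb2 was again lower with IL-1beta (-0.17 ± 0.0416, adjusted p 0.00465). Nfkb1 was 1.13-fold lower without antigen, at 115 ± 4.76 CPM in knockout and 130 ± 2.31 CPM in WT cultures (adjusted p 0.00128), and was also called with antigen and with IL-18.

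Several calls were lost when single libraries were left out. For Nfkb1 with antigen (-0.13, adjusted p 0.0211) the call was lost without the first WT library (-0.10, adjusted p 0.111) or the second knockout library (-0.11, adjusted p 0.103) and with no filter (0.0578). With IL-18 (-0.11, adjusted p 0.0416) it was lost with no filter (0.104), with these 6 libraries fitted alone (0.084), without the first (0.067), the second (0.0516) or the third (0.144) WT library and without the first (0.206) or second (0.0593) knockout library. Nfkbie without antigen, at 10.6, 12.2 and 10.8 CPM in knockout and 12.9, 16.8 and 13.4 CPM in WT libraries (-0.37 ± 0.0998, adjusted p 0.0101), lost its call without the second WT library, which stood above the other 2 (-0.24, adjusted p 0.119), and without the first (0.0542) or the third (0.0573) knockout library. With IL-1beta it was at -0.18 (adjusted p 0.16) and passed with these 6 libraries fitted alone (0.0295). Bcl3 passed in no condition, although its ranges without antigen were apart, at 8.7, 9.37 and 9.29 CPM in knockout and 10.3, 11.2 and 11.4 CPM in WT libraries (-0.27, 95% interval -0.47 to -0.06, adjusted p 0.068). It passed there with no filter (0.0256) and with these 6 libraries fitted alone (0.0466).

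**Figure D5:**
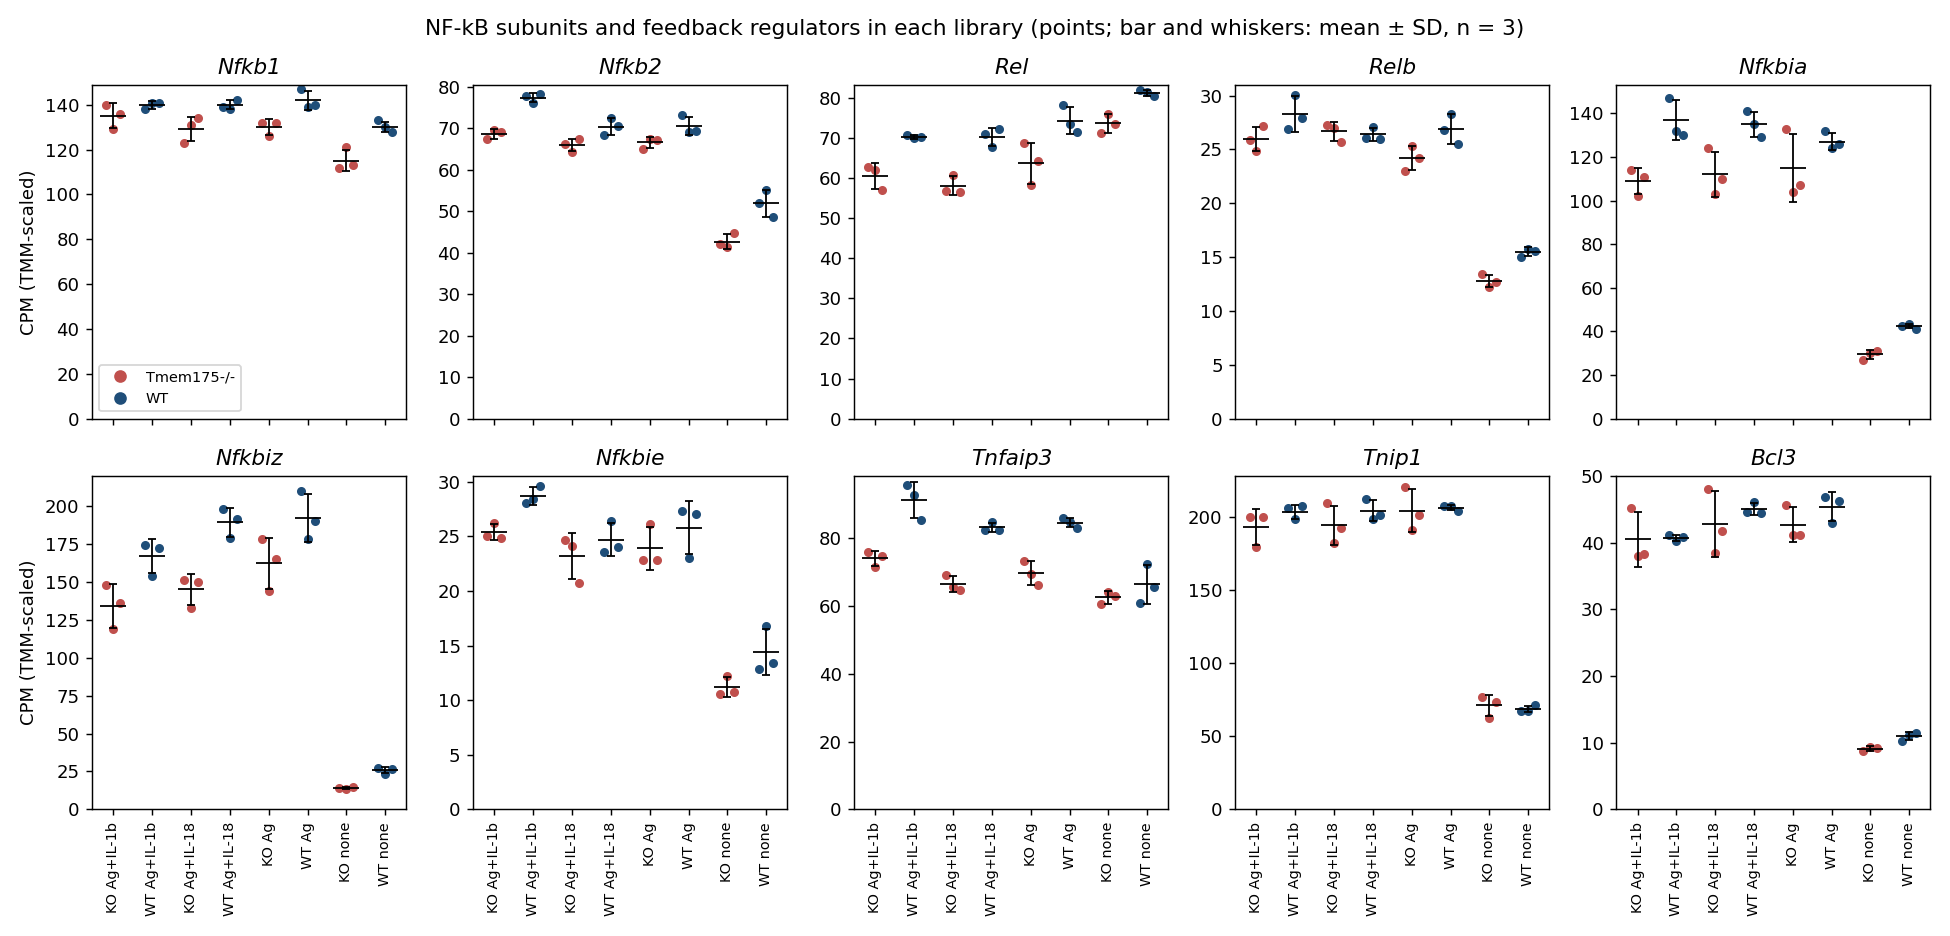
CPM of each gene in each of the 24 libraries (points), with mean ± SD of the 3 libraries of a group, knockout (red) beside WT (blue) for antigen with IL-1beta, antigen with IL-18, antigen and none. The 6 libraries without antigen lie far below the rest for Nfkbiz (13.5 to 27.3 CPM), Bcl3, Tnip1 and Nfkbia, while Rel is at its highest in the WT libraries without antigen.

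Markers of cell types also differed between genotypes. The summed macrophage markers were at 15792 to 18310 CPM in knockout and 24676 to 25635 CPM in WT libraries with antigen, and at 13231 to 13859 CPM in knockout and 18573 to 19037 CPM in WT libraries without. Lyz2 alone had 6851 CPM in knockout and 14802 CPM in WT cultures with antigen, while Itgam had 686 and 687 CPM, and 2 of the 10 markers were called higher and 1 lower. Without antigen 2 were higher and 3 lower, with IL-1beta 2 and 1, and with IL-18 3 and 1. Fibroblast markers summed to 42.5 to 51.1 CPM in knockout and 126 to 189 CPM in WT libraries with antigen, with 6 of 8 called lower. Plasma cell markers summed to 439 to 464 CPM in knockout and 309 to 325 CPM in WT libraries with antigen, with 5 of 7 tested called higher and 1 lower. Among them Jchain had 145 CPM in knockout and 6.08 CPM in WT cultures, while Sdc1 had 86.6 and 116 CPM. Without antigen 4 of 8 fibroblast markers were called lower, and 6 of 8 with each cytokine. Of the 7 plasma cell markers, 6 were higher and 0 lower without antigen, and 6 were higher and 1 lower with each cytokine. Dendritic cell markers summed to 11.3 to 11.8 CPM in knockout and 23.5 to 28.1 CPM in WT libraries with antigen and to 4.62 to 8.31 CPM in knockout and 9.32 to 11.4 CPM in WT libraries without. Of the 6 tested, 2 were lower with antigen, 4 without, 3 with IL-1beta and 4 with IL-18, and 0 were higher. Neutrophil markers summed to 488 to 634 CPM in knockout and 362 to 412 CPM in WT libraries with IL-1beta (8 of 10 called higher), and to 518 to 644 CPM in knockout and 354 to 382 CPM in WT libraries with IL-18 (7 of 10). T cell markers summed to 24 to 27.5 CPM in knockout and 30.9 to 36.1 CPM in WT libraries with antigen. Without antigen they summed to 24.2 to 25.6 and 56.4 to 62.1 CPM, where Cd4 had 10.4 and 44.8 CPM. Of the 10, 1 was higher and 1 lower with antigen, and 0 and 1 without. Of 8 B cell markers, 1 was higher and 3 lower with antigen, and 1 and 4 without. With IL-1beta 2 were higher and 1 lower, and with IL-18 3 and 0. Of 6 NK cell markers, 1 was higher with antigen and 2 lower without. The part of these differences in the members' values was not tested. Leaving out immunoglobulin genes changed no call of a member between genotypes other than that of Rel without antigen.

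The antigen response itself was compared between genotypes by the difference of the 2 responses. It passed for 2 members, both with the larger fold rise in knockout cultures, where 8.39% of tested genes passed and 3.79% in that direction. The fold rise of Nfkbiz was 1.52 times as large in knockout as in WT cultures (log2 0.61 ± 0.15, 95% interval 0.29 to 0.92, adjusted p 0.0157). In knockout cultures Nfkbiz started from the lower level and ended below the WT mean, at 162 ± 16.9 CPM in knockout and 192 ± 16 CPM in WT cultures with antigen. That call held under all alternatives tried. For Nfkb2 (0.20 ± 0.0614, adjusted p 0.0452) it was lost under 12 of 18 alternatives, with an adjusted p of 0.0517 with median-of-ratios factors, 0.0732 in DESeq2's Wald test, 0.102 with no filter and 0.0764 with these 12 libraries fitted alone. Leaving out 1 library ended it for the first (0.0791) and second (0.16) WT library without antigen, the second (0.104) and the third (0.0954) WT library with antigen, the first (0.106) and second (0.0815) knockout library without antigen and the second (0.0781) and the third (0.0893) knockout library with antigen.

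The estimate for Nfkbia was in the same direction, at 0.37 (95% interval 0.12 to 0.63, adjusted p 0.0684), and passed in DESeq2's Wald test (adjusted p 0.0251), with no filter (0.0176) and without the second knockout library with antigen (0.44, adjusted p 0.0268). That of Tnfaip3 was the other way, at -0.19 (-0.34 to -0.04, adjusted p 0.105), and passed without the second WT library without antigen (-0.26, adjusted p 0.0211). For the remaining members the intervals were -0.06 to 0.16 for Nfkb1, -0.22 to 0.06 for Rel, -0.06 to 0.30 for Relb, -0.01 to 0.53 for Nfkbie, -0.25 to 0.13 for Tnip1 and -0.06 to 0.43 for Bcl3, so that differences of up to these sizes are within the error.

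In the edgeR fit without a replicate block no member passed the threshold when a cytokine was added to the antigen. With replicate number as a block, Nfkbiz passed as lower in some of these comparisons, as given under the dependence on processing. Both cytokines signal through MyD88 to NF-kB in cells that carry their receptors. For IL-1beta over antigen alone, 0 of 10 members passed in knockout cultures (0.0426% of tested genes, 1882 genes and 1 member at an unadjusted p under 0.05) and 0 of 10 in WT cultures (0.0567%, 1319 genes and 4 members unadjusted). For IL-18, 0 of 10 passed in knockout (0.213%, 1748 genes and 2 members unadjusted) and 0 of 10 in WT cultures (0% of tested genes, 580 genes and 0 members unadjusted). DESeq2's Wald test called 0 members in each of the 4 comparisons as well. All 40 intervals lay between -0.46 and 0.33 on the log2 scale.

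Nfkbiz gave the largest estimates, and they were downward. It had 148, 119 and 136 CPM in knockout libraries with antigen and IL-1beta and 178, 144 and 165 CPM in those with antigen alone (log2 -0.28, 95% interval -0.46 to -0.09, adjusted p 0.2), and 174, 154 and 172 CPM in WT libraries with IL-1beta and 210, 178 and 190 CPM in those with antigen alone (-0.20, -0.39 to -0.02, adjusted p 0.495). The ranges overlapped in knockout cultures and were apart in WT cultures. Without the second knockout library with antigen, the one lowest in Nfkbiz, the knockout estimate was -0.35 (adjusted p 0.0476). That library also decided Rel under IL-18, at 56.7, 60.8 and 56.6 CPM in knockout libraries with IL-18 and 68.6, 58.2 and 64.1 CPM in those with antigen alone (-0.14, 95% interval -0.24 to -0.03, adjusted p 0.229), which passed without it (-0.19, adjusted p 0.0489). Whether the cytokine response differed between genotypes was tested too, and 0 of 10 members passed in edgeR's test for IL-1beta (0% of tested genes, 576 genes and 0 members at an unadjusted p under 0.05) and 0 of 10 for IL-18 (0%, 919 genes and 1 member unadjusted). Nor did any member pass there in DESeq2's Wald test.

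Over the 8 group means the members followed each other closely, apart from Rel. On the log2(CPM + 0.5) scale Nfkbia and Nfkbiz had a Pearson correlation of 0.9965, Tnip1 and Bcl3 of 0.9947, and Nfkb2 and Nfkbie of 0.9941, each the nearest member of the other. Rel had 0.09792 with its nearest member, Tnfaip3, and -0.3229 with the mean profile of the 10, where the others had 0.8545 to 0.9857. The non-members closest to the mean profile were Slc16a9 (0.9991), Hcar2 (0.9963), Ncoa7 (0.9961), Tnfrsf14 (0.9942) and Atxn1 (0.9941). These 8 points share 2 genotypes and 1 antigen, so the correlations mostly restate the step between libraries with and without antigen and are given as a description.

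The rest of the pathway was read from fixed lists, whose counts stand against 33.8% of all tested genes higher and 34.6% lower with antigen in knockout and 33.5% and 34.5% in WT cultures. Among the other family members and IkB genes (5, all tested) antigen raised 2 and lowered 2 in each genotype, a share near that of all tested genes: Nfkbib, which encodes IkB-beta, rose 2.71-fold in knockout and 2.6-fold in WT cultures, and Rela, which encodes the main activating subunit, rose 1.28-fold and 1.27-fold, while Nfkbid, which encodes another nuclear IkB protein, fell to 5.53 ± 0.771 CPM in knockout cultures with antigen, against 12.2 ± 1.16 CPM without, and to 6.58 ± 0.715 CPM in WT cultures with antigen, against 11.6 ± 0.544 CPM without. Between genotypes 0 of the 5 passed in each of the 4 conditions, in edgeR's or DESeq2's test, with 1 of 5 at an unadjusted p under 0.05 with antigen, 1 without, and 0 with each cytokine. Rela, the partner of p50 in the classical dimer, thus showed no call where Rel did, although the difference between the 2 genes was not tested.

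Of 16 kinases and kinase regulators, antigen raised 10 and lowered 1 in knockout cultures and raised 11 and lowered 2 in WT cultures, led by Ripk2, the kinase below NOD receptors (2.36-fold higher in knockout, 2.72-fold in WT cultures). Ripk2 was also lower in knockout than in WT cultures with antigen (43.6 ± 1.04 and 53 ± 0.535 CPM, adjusted p 0.000544), with IL-1beta (42.7 ± 3.11 and 50.5 ± 2.98 CPM) and with IL-18 (40.5 ± 1.78 and 47.8 ± 3.06 CPM). Between genotypes 2 of the 16 were called lower in each condition, with 1 higher in each condition with antigen and 0 higher without. Ikbke was higher in knockout than in WT cultures with antigen (220 ± 8.4 and 200 ± 3.24 CPM) and lower without (124 ± 6.86 and 138 ± 0.891 CPM). Of 17 adaptors and ubiquitin ligases, antigen raised 11 and lowered 2 in each genotype. Between genotypes 3 of the 17 were lower and 1 higher with antigen, 2 and 1 without, 2 and 1 with IL-1beta, and 3 and 3 with IL-18. Birc3, which encodes the ubiquitin ligase cIAP2 and is itself a target of NF-kB, rose 3.17-fold in knockout and 3.06-fold in WT cultures, and was lower in knockout than in WT cultures in each condition: 177 ± 2.12 and 213 ± 3.77 CPM with antigen, 55.7 ± 3.23 and 69.7 ± 3.48 CPM without, 183 ± 4.97 and 226 ± 5.35 CPM with IL-1beta, and 174 ± 1.6 and 213 ± 1.19 CPM with IL-18. Myd88 was higher in knockout than in WT cultures with antigen (92.7 ± 2.3 and 80.6 ± 1.1 CPM). Of all tested genes, 7.62%, 7.25%, 6.55% and 10.3% were lower in these conditions, and 7.7%, 9.62%, 7.22% and 9.89% higher. The genotype medians of both lists lay between -0.03 and 0.04 on the log2 scale.

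Of 19 other negative regulators, antigen raised 13 and lowered 5 in each genotype, with Socs3, the inhibitor of cytokine receptor signalling, at 235 ± 35.1 CPM in knockout cultures with antigen against 3.11 ± 1.16 CPM without, and at 229 ± 9.5 against 5.84 ± 2.02 CPM in WT cultures. Irak3, which encodes the inhibitory kinase IRAK-M, rose 9.13-fold in knockout and 8.44-fold in WT cultures. Between genotypes 1 of the 19 was lower with antigen (7.62% of all tested genes were), 4 were lower and 2 higher without (7.25% and 9.62%), 3 were lower with IL-1beta (6.55%) and 3 with IL-18 (10.3%), and its median was -0.01, -0.13, -0.07 with IL-1beta and -0.06 with IL-18. Zc3h12c, which encodes an RNase of the Regnase family, was lower in knockout than in WT cultures with IL-1beta (119 ± 7.84 and 139 ± 1.71 CPM) and with IL-18 (112 ± 6.15 and 145 ± 9.92 CPM).

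Inflammatory genes that NF-kB is known to activate (32, of which 30 were tested) gave 27 higher and 2 lower with antigen in knockout and 26 higher and 2 lower in WT cultures, with medians of 2.08 and 1.87 on the log2 scale. In knockout against WT cultures, 12 were lower and 0 higher with antigen, 15 lower and 2 higher without, 13 lower with IL-1beta and 13 lower with IL-18, where 7.62%, 7.25%, 6.55% and 10.3% of all tested genes were lower, with medians of -0.26, -0.55, -0.38 and -0.34, which are further from 0 than those of the 10 members in each condition. Vcam1, an adhesion molecule, had 25 ± 0.395 CPM in knockout and 61.6 ± 1.82 CPM in WT cultures with antigen and 16.5 ± 2.77 and 61.2 ± 2.23 CPM without. The chemokine genes Ccl22 (5.66 ± 0.782 and 16.1 ± 1.42 CPM) and Cxcl1 (5.44 ± 0.574 and 11.2 ± 1.19 CPM) were lower in knockout than in WT cultures with antigen. Il1b was at 385 ± 19.7 CPM in knockout and 764 ± 30 CPM in WT cultures with antigen, a call that DESeq2's Wald test did not make.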

How the data were processed

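The authors deposited a table of read counts, 24 libraries by 55487 Ensembl genes, whose values were checked to be whole and unscaled. Reads were trimmed with fastp (version not given) and the genome build was GRCm39, per the submitters' processing notes; the aligner, counter, strand setting and annotation are not given in the sources used here. Symbols were matched by Ensembl identifier and transcript lengths came from GENCODE vM21. The 10 genes, the gene lists and the tests were chosen with earlier results of these data known. Genes were kept with filterByExpr (14099, with 99.9% of all reads counted), scaled with TMM factors and fitted with edgeR 4.0.16 (R 4.3.3, robust quasi-likelihood fit, every library in 1 model of group means with 16 degrees of freedom left). In each of 13 comparisons a gene was called when its Benjamini-Hochberg adjusted p was under 0.05, at any fold. CPM was computed with those factors, ± is the SD over 3 libraries for CPM and the SE for log2 fold changes, and intervals come from the SE and the fit's degrees of freedom.

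All 10 members are reported in every comparison, and of each pathway list the text names up to 4 called genes with the largest change and a mean of at least 2 log2 CPM, mostly those that kept their call, a choice made after their values were seen. Libraries of a group were compared pair by pair, and none agreed within sampling noise (chi-square per degree of freedom 1.43 to 15.3 over 24 pairs). Depth was 17744540 to 24898552 counts per library, and the biological coefficient of variation common to all genes was 5.01%. Counts were simulated for every library from the WT means with antigen (14072 genes). In the knockout group with antigen 200 genes were changed, 50 per fold. For knockout over WT with antigen, true folds of 1.2, 1.5, 2 and 4 were found in 42%, 74%, 94% and 96% of changed genes, with 4.97% of calls false. For the difference of antigen responses the shares were 18%, 54%, 92% and 96%, with 5.11% false. As alternatives, the edgeR model was given size factors by DESeq2's median of ratios, genes of low count were kept, replicate number entered as a block, only the compared libraries were used, immunoglobulin genes were dropped, and single libraries were left out. DESeq2 1.42.0 (Wald test) was run beside it. Promoter windows came from RefSeq on GRCm38.p6, with the 50 bases after the start not used. No batch or date is in the labels.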

Additional observations from a re-analysis of the deposited data

Results flagged for a closer look

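The antigen response of 2 members differed between genotypes in the test of the difference itself (edgeR's quasi-likelihood test). Of all tested genes 8.39% passed it, and 3.79% with the larger response in knockout cultures. Nfkbiz rose by 0.61 more on the log2 scale in knockout than in WT cultures (adjusted p 0.0157), with 162 ± 16.9 against 14.3 ± 0.803 CPM in knockout and 192 ± 16 against 25.9 ± 2.08 CPM in WT cultures (with antigen against none, SD, n = 3 each). Nfkb2 rose by 0.20 more (adjusted p 0.0452), with 66.6 ± 1.29 against 42.7 ± 1.84 CPM in knockout and 70.6 ± 2.22 against 51.9 ± 3.33 CPM in WT cultures. The call of Nfkb2 was lost under 12 of 18 alternatives. In both genes, the genotypes lay further apart without antigen than with it.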

How the results depend on the processing

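Of 70 results on the 10 members, in the 4 genotype comparisons, the 2 antigen responses and the difference of those responses, 42 were called. Of these, 33 kept their call under every alternative and 9 lost it at least once, as given beside their values. Of the 28 not called, 7 passed under at least 1 alternative. Of 109 results on other pathway genes named by the rule, 27 lost their call at least once and 0 reversed. For estimates near 0 that were not called, leaving out single libraries turned the sign: for knockout over WT, the range was -0.01 to 0.13 for Tnip1 without antigen, -0.07 to 0.03 for Tnip1 with antigen, -0.09 to 0.04 for Bcl3 with IL-1beta and -0.01 to 0.04 for Relb with IL-18, and for IL-18 over antigen in WT cultures it was -0.08 to 0.04 for Nfkbiz. The cause was not tested for any of these changes.

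Leaving out single libraries gave 2 to 5 members called for knockout over WT with antigen (3 with all libraries) and 5 to 7 without antigen (7). It gave 4 to 5 with IL-1beta (5) and 3 to 4 with IL-18 (5). There were 9 to 10 for the antigen response of each genotype (10 each). In knockout cultures there were 0 to 1 for IL-1beta and for IL-18 over antigen (0 each), and 1 to 2 for the difference of antigen responses (2). That difference of responses also had 1 member with median-of-ratios factors and 1 with the compared libraries alone. Over all genes, knockout over WT with IL-18 gave 1864 to 2545 calls without single libraries (2851 with all). Few genes were called for the cytokines, and those counts moved most. For IL-1beta over antigen in WT cultures (8 genes) there were 79 calls with no filter, 48 with the compared libraries alone and 2 to 7 without single libraries. In knockout cultures (6 genes) there were 55 in DESeq2's Wald test, 287 with no filter and 1 (without the first library with antigen alone) to 259 (without the second) on leaving out single libraries. For IL-18 over antigen in WT cultures (0 genes) there was 1 in DESeq2's test, 2 with no filter, 2 with the compared libraries alone and 0 to 1 without single libraries. In knockout cultures (30 genes) there were 231 in DESeq2's test, 302 with no filter, 47 without immunoglobulin genes, 0 with the compared libraries alone and 0 to 225 without single libraries. The difference of IL-1beta responses (0 genes) had 1 call with no filter. That of IL-18 responses (0 genes) had 4 in DESeq2's test, 17 with no filter and 0 to 3 without single libraries.

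Groups share replicate numbers. Deviations of same-numbered libraries were positively correlated in every comparison, but weakly, at 0.00157 to 0.229, and in no comparison did all 3 pass 0.1. Libraries 1 and 2 were the least alike pair of every group. Their chi-square per degree of freedom was 15.3 in knockout and 3.57 in WT cultures without antigen, and 9.3 and 4.9 with antigen. The labels do not say whether a number marks a shared batch, and the numbers were not taken as pairs. In 4 of the 10 comparisons between groups each library correlated best with its own number, which is a hint from the data and not from the design. With replicate number as a block, 5 members were called for knockout over WT with antigen (3 without the block), and 1 member each for IL-1beta over antigen in WT (-0.20 for Nfkbiz, adjusted p 0.00278) and knockout cultures (-0.28, 3.02e-05) and for IL-18 over antigen in knockout cultures (-0.17, 0.0163). The members gained between genotypes with antigen were Nfkbiz (-0.25, 3.15e-06) and Relb (-0.15, 0.0469). Bcl3 without antigen (0.0364) and the antigen-response difference of Nfkbia (0.37, 0.0158) also passed. Over all genes the block gave 102 calls for IL-1beta over antigen in WT and 422 in knockout cultures, 1 for IL-18 in WT and 274 in knockout cultures, and 5 for the difference of IL-18 responses.

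At this depth and with 3 libraries a group, true folds of 1.2 were found for 42% of changed genes in simulated counts. The simulation changed 200 genes, where 2160 were called for knockout over WT with antigen. Its changed genes also covered a wide range of levels, so the share need not hold for the members. Missing calls at the size of most genotype differences here are not evidence of equal levels.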

Other observations

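Beside the 10 members, the difference of antigen responses passed for 8 further genes of the pathway lists that the naming rule covers. It passed for 8.39% of all tested genes. By list, 1 of 16 kinases was called higher, 1 of 17 adaptors lower and 0 of the 5 other family members. Of 19 negative regulators 1 was higher and 1 lower, and of 30 tested inflammatory targets 4 were higher and 1 lower. Ikbke, which encodes an IkB kinase-related kinase, rose by 0.29 more on the log2 scale in knockout cultures (adjusted p 0.000486), with 220 ± 8.4 against 124 ± 6.86 CPM in knockout and 200 ± 3.24 against 138 ± 0.891 CPM in WT cultures (with antigen against none). Malt1, the protease of the CARD-BCL10-MALT1 complex, fell by 0.43 more in knockout cultures (adjusted p 0.00598), and fell to 72 ± 3.72 CPM in knockout cultures with antigen, against 136 ± 13.9 CPM without. Of the inflammatory targets, the difference was upward in knockout cultures for the adhesion genes Vcam1 (0.60, adjusted p 0.0015) and Icam1 (0.46, adjusted p 0.00878) and the chemokine gene Ccl2 (1.49, adjusted p 0.00441). It was downward for Bcl2a1b (-0.72, adjusted p 0.00139). Vcam1 had 25 ± 0.395 CPM with antigen and 16.5 ± 2.77 CPM without in knockout cultures. In WT cultures it was level, at 61.6 ± 1.82 and 61.2 ± 2.23 CPM. In 2 negative regulators, N4bp1 (0.18, adjusted p 0.0412) and Tax1bp1 (-0.16, adjusted p 0.0113), the difference was smaller.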
